A study of Canis lupus familiaris with 33 samples.

Results

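Canine diffuse large B-cell lymphomas (DLBCL) were compared by how strongly they expressed class I major histocompatibility complex (MHC) genes. The 23 DLBCL arrays were ranked by the mean log2 level of DLA-79 and DLA-64, which encode non-classical (class Ib) heavy chains of the dog, and the 7 highest (class I high) were set against the 7 lowest (class I low), so that 14 of the 33 arrays of the series entered the comparison. The other 9 DLBCL arrays lay between, and 10 arrays came from healthy lymph nodes. The groups were chosen by the measured levels of DLA-79 and DLA-64, so these levels are a description and every other gene was tested for its association with them.

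Class I molecules consist of a heavy chain and the light chain beta-2 microglobulin, and they show peptides from inside the cell to CD8 T cells. Proteasomes cut the peptides, the TAP transporter carries them into the endoplasmic reticulum, and tapasin with other chaperones loads them. Class II molecules, by contrast, show peptides from endosomes to CD4 T cells and are made by B cells, macrophages and dendritic cells. Non-classical heavy chains are less variable relatives of the classical ones, such as DLA88, that present most peptides. Loss of classical class I or of class II from tumour cells is a known feature of human DLBCL.

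All arrays measured RNA of lymph node tissue from pet dogs of several breeds on the Affymetrix Canine Genome 2.0 array, with 1 RMA log2 value per probeset. The class I high arrays came from 7 dogs aged 4.7 to 10.8 years, 4 of them treatment naive and 3 relapsed after CHOP, a standard combination chemotherapy of lymphoma (days since treatment 76, 13 and 32). The class I low arrays came from 6 dogs aged 2.7 to 12 years, with 5 naive arrays and 2 relapsed arrays (152 and 672 days since treatment). Samples 11 (naive) and 12 (relapsed) of the low group were the same dog. Healthy nodes came from 7 dogs euthanised for conditions other than lymphoma, so some of the 10 healthy arrays shared a dog. The biopsies hold tumour and other cells, so fewer cells of a type and less RNA per cell cannot be told apart. The p-values measure the spread between these arrays, which came from different dogs apart from samples 11 and 12.

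The index, the mean log2 level of both genes, ran from 10.71 to 11.65 in the class I high tumours (median 10.94) and from 8.94 to 9.95 in the class I low tumours (median 9.37). Just inside the high group was sample 9 at 10.71 and just outside it sample 5 at 10.69. At the other boundary, sample 12 at 9.95 was inside the low group and sample 25 at 10.18 outside it. The upper boundary therefore separated neighbours that were nearly equal. In healthy nodes the index ran from 11.05 to 11.76, a range that held samples 18 and 20 of the high group and none of the low group.

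The genes did not move in step. DLA-79 ran from 11.77 through a median of 12.25 to 13.17 in the high group and from 9.26 through 10.41 to 11.86 in the low group, where sample 12 overlapped the high group. DLA-64 ran from 9.32 through 9.66 to 10.44 in the high group and from 7.79 through 8.52 to 8.95 in the low group, without overlap. Sample 12 joined the low group through its DLA-64 of 8.05, and samples 8 and 10 had the lowest DLA-79 (9.26 and 9.57).

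**Figure D1:**
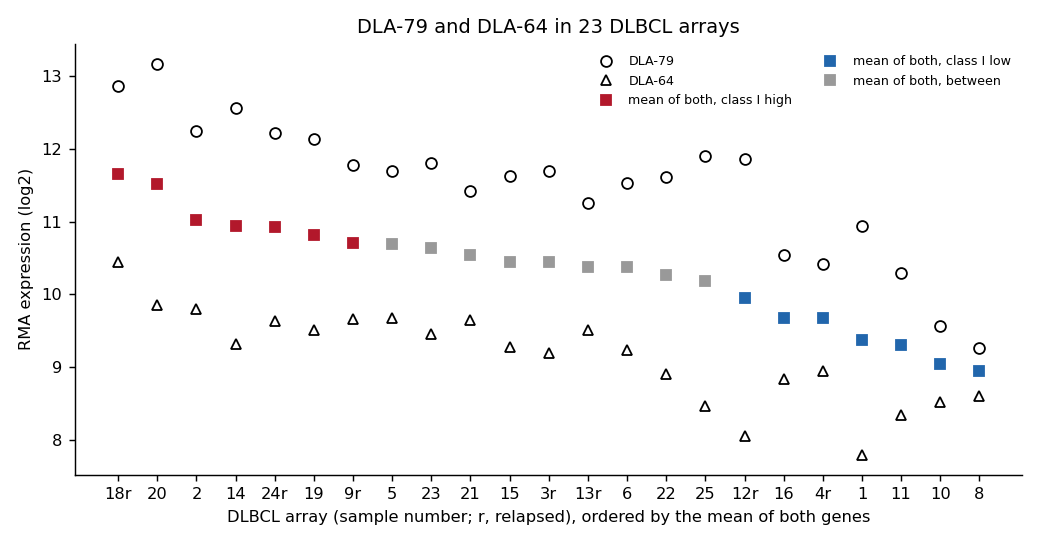
RMA log2 expression of DLA-79 (circles), DLA-64 (triangles) and their mean (squares; red, class I high; grey, between; blue, class I low) in each of the 23 DLBCL arrays, ordered by the mean. The mean falls from 11.65 in sample 18 to 8.94 in sample 8. DLA-79 lies above DLA-64 in every array, and the genes rank the arrays differently.

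Other probesets of the heavy chains were described in the same way. DLA-79 had 2 further probesets, with log2 differences (high minus low) of 1.99 and 2.14. Of 2 probesets shared by DLA-64 and DLA88, the classical class I heavy chain, 1 differed by 2.02 and the other, near the top of the scale, by 0.15. DLA88 itself had a brightest probeset at 12.84 to 13.83 in the high group and 12.47 to 13.75 in the low group, a difference of 0.29 ± 0.19 (SE; limma, unadjusted p = 0.1601). A second DLA88 probeset ran from 2.57 to 13.56 in the high group and from 2.88 to 13.47 in the low group. It was under 6 in 3 high and 3 low tumours, and over all 23 tumours in 11, with 9 tumours above 12. DLA88 is highly polymorphic, and whether sequence differences between dogs touch these probes was not tested.

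Of the technical measures, the integrity number of the RNA (RIN, where 10 is intact) averaged 9.6 ± 0.26 in the high and 9.84 ± 0.14 in the low group (SD, n = 7 each), a difference of -0.24 (two-sided exact permutation test, p = 0.05303, smallest possible p 0.0005828). Sample 18, first in the index, had the lowest RIN of the 14 at 9.1. In the healthy nodes RIN ran from 5.8 to 9.4 (mean 7.72), and the healthy ranges given here were not adjusted for it. Age differed by 1.23 years (exact permutation p = 0.4073). The array day was known for 6 high and 5 low arrays, and the groups were spread over the same 3 days, with 3, 2 and 1 high arrays and 2, 2 and 1 low arrays. The part of RIN in the results was not tested beyond a fit with RIN as a covariate, whose counts are given beside the lists where they moved by more than 1 or 2 genes.

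After adjustment over all 43035 probesets, limma called no probeset at an adjusted p under 0.05 in either direction (0% of the 43029 probesets left after those of the index genes were removed). The smallest adjusted p was 0.053, for a probeset without a gene name that differed by 1.26. The label of that probeset differs only in its ending from that of an ENOSF1 probeset, which differed by 1.08. At an unadjusted p under 0.05, limma gave 1981 probesets higher (4.6%) and 2019 lower (4.69%) in the class I high tumours. The unmoderated one-way test named in the study's methods also gave 0 adjusted calls, with 1869 higher and 1982 lower unadjusted. Over the 15113 named genes, each read from its brightest probeset, 690 were higher (4.57%) and 767 lower (5.08%) at that level, and the median difference was -0.01. These shares are the background for each list below. In data simulated with independent noise at the same group sizes, limma recovered 28% of changes of 0.5, 88% of changes of 1 and 96% of changes of 2 on the log2 scale. Each size was given to 50 simulated probesets, and such true changes ease the adjusted threshold. These shares therefore do not carry over to the data, where differences of 3.14 (FCER1G) and 2.44 (DLA-DOB) were not called.

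Over all probesets the groups did not overlap for 55 that were higher (0.128%) and 30 that were lower (0.0697%) in the high tumours. Over named genes they did not overlap for 17 that were higher (0.112%) and 8 that were lower (0.0529%) in the high tumours. Since no gene passed the adjusted test, the 10 of smallest p in each direction are described, all with an adjusted p of 0.1475 to 0.252 in limma. None of these differences is therefore a call.

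BCL11A, a zinc finger transcription factor of early lymphoid and B cells, had the smallest p of the higher genes. It ran from 12.02 through a median of 12.32 to 12.44 in the high tumours and from 11.57 through 11.67 to 11.94 in the low tumours, a log2 difference of 0.57 ± 0.09 (SE; limma adjusted p = 0.1475). Its groups did not overlap, its 3 probesets were all higher, and healthy nodes lay at 11.19 to 12.03. FCMR, the Fc receptor for IgM, ran from 10.55 through 11.19 to 11.63 against 9.46 through 10.21 to 10.51, a difference of 1.06 ± 0.19. FCER2, the low-affinity IgE receptor CD23 of follicular B cells, ran from 6.44 through 7.04 to 8.35 against 5.31 through 5.67 to 6.23, a difference of 1.45 ± 0.28 and a fold of 2.73. BTLA, an inhibitory receptor of B and T cells, ran from 8.95 through 9.6 to 10.12 against 7.83 through 8.38 to 8.98, a difference of 1.03 ± 0.2, with 1 low tumour (sample 11) inside the range of the high tumours.

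RUBCNL, which promotes maturation of autophagosomes, ran from 9.33 to 10.47 against 7.48 to 9.16 (difference 1.37 ± 0.24). ATG13, a subunit of the kinase complex that starts autophagy, differed by 0.48 ± 0.1, and its dimmer probesets by 0.05 and 0.23. SLC31A2, a copper transporter, ran from 8.16 to 9.7 against 7.14 to 8 (1.32 ± 0.26), and its dimmer probeset differed by 0.25. RELL2, a TNF receptor binding protein, differed by 0.73, ENOSF1, an enolase-like enzyme, by 1.32 and RAB4B, a small GTPase of endosome recycling, by 0.59. RELL2, ENOSF1 and RAB4B overlapped between the groups.

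DDIT4, an inhibitor of mTOR that is induced by stress, had the smallest p of the lower genes. It ran from 6.83 through 7.03 to 7.24 in the high tumours and from 7.37 through 7.63 to 7.72 in the low tumours (difference -0.53 ± 0.09). ACTN1, an actin crosslinker, ran from 6.82 through 7.94 to 9.42 against 9.7 through 10.14 to 10.62, a difference of -1.90 ± 0.38. Here the low tumours lay close together and the high tumours spread over more than 2 log2 units. TREM2, a receptor of macrophages, ran from 7.8 to 9.22 against 9.31 to 10.34 (-1.02 ± 0.22), and its dimmer probesets differed by -0.74, -0.16 and -0.26. CBX5, the heterochromatin protein HP1 alpha, differed by -0.73, CDC27, a subunit of the anaphase promoting complex, by -0.59 and USP2, a deubiquitinase, by -0.91. RARRES2, the chemoattractant chemerin, differed by -0.73, the magnesium transporter NIPA2 by -0.43, UBXN2A by -0.53 and LOC609990 by -0.41.

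**Figure D2:**
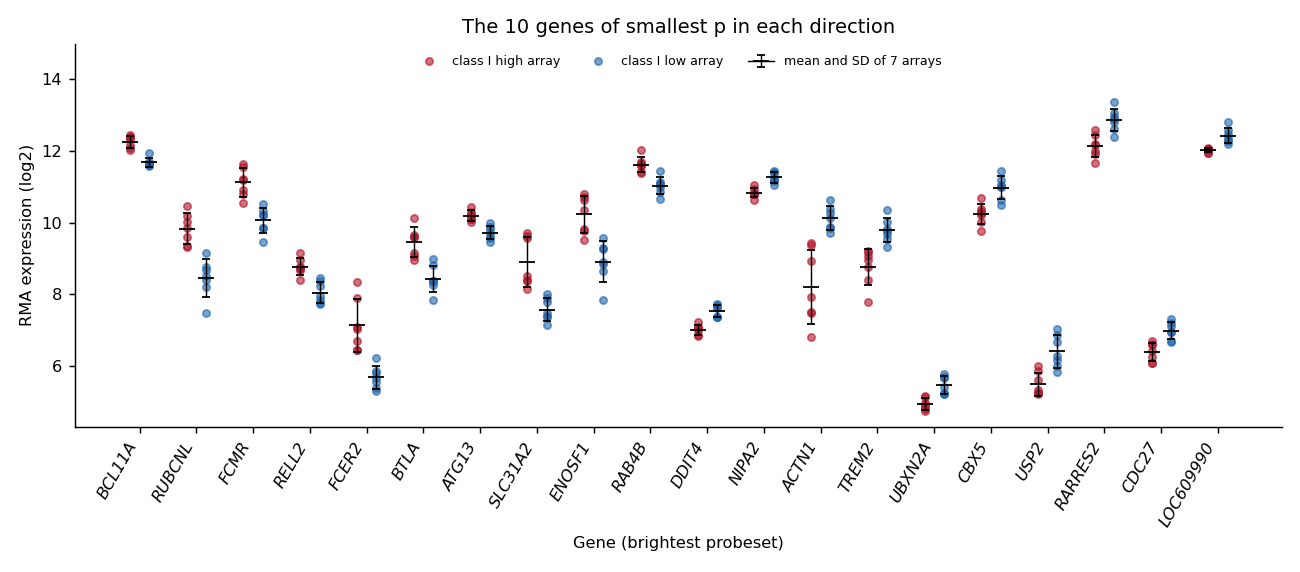
RMA log2 expression of the 10 genes of smallest p that were higher (left) and the 10 that were lower (right) in class I high tumours, 1 point per array (red, class I high; blue, class I low) with mean and SD of 7 arrays. The points of BCL11A, FCMR and ACTN1 separate the groups, and those of RELL2 and RAB4B overlap.

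Most of the rest of the class I pathway had differences near 0, while RFX5 (0.71) and TAP1 (0.23) passed an unadjusted p of 0.05 in limma. Of 14 light chain, loading and regulatory genes, 7 lay above 0 and 7 below, 2 were higher and 0 lower at an unadjusted p under 0.05, and the median difference was -0.01. B2M, the light chain, ran from 14.18 through 14.29 to 14.55 in the high and from 14.2 through 14.25 to 14.35 in the low tumours, a difference of 0.06 ± 0.07 (limma, unadjusted p = 0.382). Its level is near the top of the scale, where the array can compress differences, and healthy nodes lay at 14.42 to 14.55. The index genes, which set the groups, differed by 1.66 on average.

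Of the loading genes, TAP1, a subunit of the peptide transporter, ran from 13.18 through 13.38 to 13.54 against 12.9 through 13.17 to 13.32, a difference of 0.23 ± 0.08 (unadjusted p = 0.01423, limma adjusted p = 0.4156). In 6 of 7 high tumours it was above every low tumour. TAP2, the other subunit, differed by 0.02 ± 0.08, TAPBP (tapasin) by 0.15 ± 0.08, and its homologue TAPBPL by -0.04 ± 0.19. The peptide trimming enzymes ERAP1 and ERAP2 differed by -0.06 and -0.11, and the chaperones CALR, CANX and PDIA3 by -0.04, -0.17 and -0.17. Heavy chains outside the index had differences of the same order, DLA88 at 0.29 and FCGRT at 0.16.

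RFX5, a DNA-binding subunit of the complex that occupies MHC promoters, stood out among the regulators. It ran from 10.95 through 11.36 to 11.7 in the high tumours and from 10.13 through 10.58 to 11.07 in the low tumours, a difference of 0.71 ± 0.16 (unadjusted p = 0.0004386, limma adjusted p = 0.252), and both of its probesets were higher. Its partners RFXANK and RFXAP differed by 0.16 ± 0.14 and -0.17 ± 0.15. NLRC5, the class I transactivator, ran from 7.36 to 8.34 against 7.38 to 7.89 and differed by 0.09 ± 0.15. FCGRT, the heavy chain of the neonatal Fc receptor, ran from 12.41 to 13.12 against 12.23 to 12.7 (0.16 ± 0.11).

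The 5 immunoproteasome genes had a median of -0.08, and none passed an unadjusted p of 0.05. PSMB8 differed by 0.06 ± 0.1, PSMB10 by -0.08 ± 0.15, and the activator subunits PSME1 and PSME2 by -0.12 and -0.04. PSMB9 differed by -0.37 ± 0.45, with sample 14 of the high group at 10.31 and the other high tumours at 13.26 to 14.01. Of 27 constitutive proteasome genes, 0 were higher and 8 lower at an unadjusted p under 0.05 (median -0.15), among them PSMA6 at -0.33 and PSMB6 at -0.36. That count was 5 without sample 20, 3 with RIN as a covariate, 3 in the naive arrays alone, and 3 or 4 with groups set by DLA-79 or DLA-64 alone.

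**Figure D3:**
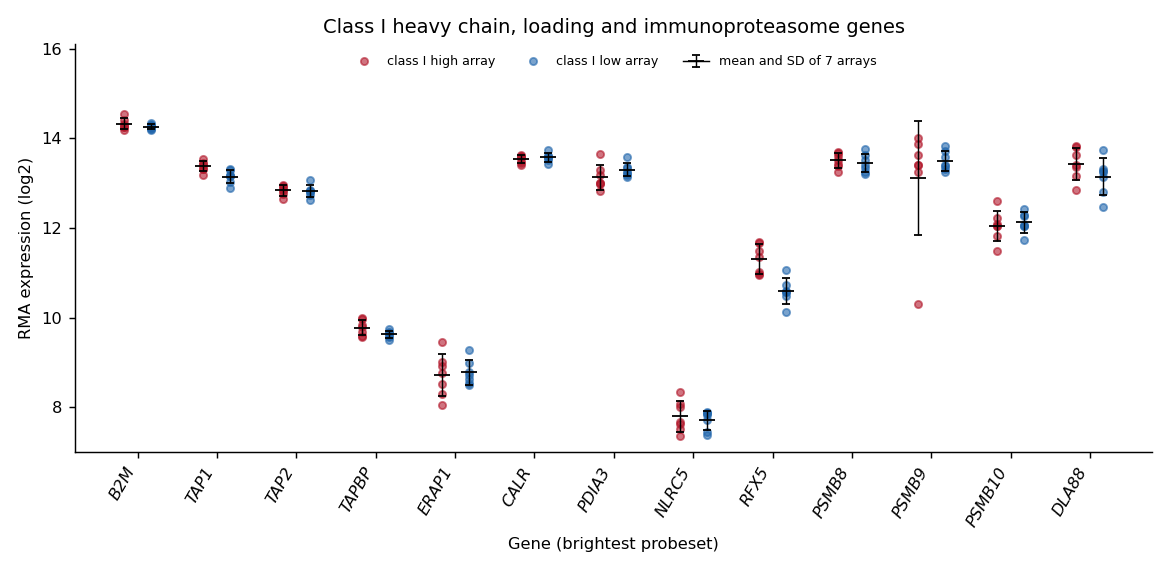
RMA log2 expression of B2M, loading genes, regulators, immunoproteasome subunits and DLA88, 1 point per array (red, class I high; blue, class I low) with mean and SD of 7 arrays. RFX5 differs by 0.71 and TAP1 by 0.23, the other genes drawn by less than 0.4 in either direction, and 1 high tumour is far below the others for PSMB9 (10.31).

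Class II presentation genes were higher in the class I high tumours. All 13 genes of the list lay above 0, with 10 higher and 0 lower at an unadjusted p under 0.05, against 4.57% of all genes, and the median difference was 0.60. None passed the adjusted threshold (smallest limma adjusted p 0.2654). The mean over the list ran from 12.77 to 13.33 in the high tumours and from 11.48 to 12.77 in the low tumours. The high tumours lay close together, in or near the healthy range of 12.68 to 13.32, and 6 of the 7 low tumours lay below all of them, sample 12 reaching 12.77.

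CIITA, the class II transactivator, ran from 7.8 through 8.57 to 9.88 in the high tumours and from 6.82 through 7.63 to 7.93 in the low tumours, a difference of 1.2 ± 0.27 (unadjusted p = 0.0005859, limma adjusted p = 0.2654). A second, dimmer CIITA probeset differed by 0.04. DLA-DQA1, a classical class II alpha chain, ran from 13.2 through 13.39 to 13.71 against 11.52 through 12.81 to 13.27, a difference of 0.77 ± 0.2. The peptide exchange regulators DLA-DOA and DLA-DOB, which are mostly made by B cells, differed by 0.75 ± 0.2 and 2.44 ± 0.7. For DLA-DOB the low tumours ran from 6.96 through 8.09 to 11.6 and the high tumours from 10.41 through 11.31 to 12.83. The remaining genes, chosen for mention after their values were seen, included DLA-DRA at 0.60, DLA-DQB1 at 0.80, DLA-DMA at 0.61 and the invariant chain CD74 at 0.21, while the endosomal proteases CTSS and LGMN differed by 0.10 and 0.13.

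The class II count was 9 to 10 with any 1 array left out, 11 with RIN as a covariate and 8 in the naive arrays alone. With groups set by DLA-79 alone it was 9, with groups set by DLA-64 alone 2 of 13 (median 0.32), and with 8 tumours a group 6 of 13 (median 0.42). All 13 genes lay above 0 under each of these group definitions. With RIN as a covariate, and without sample 18, 12 of 13 did. The high group of 8 and the high group set by DLA-64 alone both held sample 5, whose class II mean was 11.97. The other tumours between lay at 12.76 to 12.93, and the part of sample 5 in these counts was not tested.

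Genes of cytotoxic and natural killer cells were also higher. Of 14, 13 lay above 0, 9 were higher and 1 lower at an unadjusted p under 0.05, and the median difference was 0.88 (smallest limma adjusted p 0.3171). GZMA, a granzyme of killer cells, ran from 8.04 through 8.82 to 10.45 in the high tumours and from 7.31 through 7.86 to 8.29 in the low tumours, a difference of 1.24 ± 0.31. CCL5, a chemokine of activated T cells, ran from 10.13 through 11.79 to 12.64 against 9.14 through 10.43 to 11.01 (1.46 ± 0.43). NKG7, a granule protein, differed by 1.31 ± 0.39 and KLRD1, the receptor chain CD94, by 1.05 ± 0.3. The gene that was lower was FASLG, the ligand of the death receptor FAS, at -0.90, named after its value was seen. NCR1, a defining receptor of natural killer cells, lay at 3.77 to 4.52 over both groups.

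The mean over the cytotoxic list ran from 7.16 to 8.42 in the high and from 7.02 to 7.56 in the low tumours, and sample 20 of the high group fell within the low range. With RIN as a covariate the count of higher genes was 2 of 14 in place of 9, with a median of 0.60. In healthy nodes the list mean ran from 8.38 to 9.07.

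T-cell genes had a median near 0. Of 22, 14 lay above 0 and 8 below, 0 were higher and 3 lower at an unadjusted p under 0.05, and the median was 0.11. CD3D, a chain of the T-cell receptor complex, ran from 12.94 through 13.28 to 13.79 in the high tumours and from 13.39 through 13.9 to 14.04 in the low tumours (-0.42 ± 0.14). CD3G, another chain, differed by -1.60 ± 0.72, with sample 20 at 6.25 against 9.84 to 12.15 in the other high tumours. CCR7, which guides naive T cells and dendritic cells into nodes, differed by -0.55 ± 0.19. CD3E and CD8A, named after their values were seen, differed by 0.46 ± 0.51 and 0.14 ± 0.13. Of these chains of the T-cell receptor complex, CD3D and CD3G lay below 0, while the difference of CD3E was smaller than its SE. The mean over the list ran from 6.82 to 8.54 in the high and from 7.43 to 8.5 in the low tumours, which overlapped. Healthy nodes lay above both groups, at 9.22 to 10.4. In the naive arrays alone 4 T-cell genes were higher and 1 lower (median 0.44), and with groups set by DLA-64 alone 0 were higher and 0 lower.

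Genes of cell division were lower in the class I high tumours. All 23 mitosis genes lay below 0, with 0 higher and 17 lower at an unadjusted p under 0.05, against 5.08% of all genes, and the median difference was -0.75 (smallest limma adjusted p 0.2979). BUB1B, a kinase of the spindle checkpoint, ran from 8.78 through 10.14 to 10.75 in the high tumours and from 10.52 through 11.2 to 11.39 in the low tumours (-1.07 ± 0.26). TTK, another checkpoint kinase, ran from 6.96 through 8.2 to 8.69 against 8.22 through 9.27 to 9.59 (-1.14 ± 0.28). CDC20, the activator of the anaphase promoting complex, differed by -0.87 ± 0.23 and AURKA, a kinase of the spindle poles, by -0.81 ± 0.23.

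The mean over the mitosis list ran from 8.77 to 10.02 in the high and from 9.28 to 10.57 in the low tumours. Sample 12 alone made the low end of the low group, the other 6 lying at 10.04 or above, and samples 18 and 9 made the low end of the high group. The count of lower genes was 20 without sample 12, 13 without sample 9, 12 with RIN as a covariate and 5 with groups set by DLA-64 alone. Healthy nodes had means of 7.35 to 9.5, below most tumours of both groups.

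DNA replication genes lay below 0 in 27 of 29, with 8 lower at an unadjusted p under 0.05 and a median of -0.32. POLA1, the catalytic subunit of polymerase alpha, differed by -1.10 ± 0.34, PRIM1, its primase, by -0.54 and PCNA, the sliding clamp, by -0.21. A second, dimmer POLA1 probeset differed by -0.06. The count of lower replication genes was 4 without sample 9, 12 without sample 12, 3 with RIN as a covariate, and 5 or 4 with groups set by DLA-79 or DLA-64 alone. All 24 genes of oxidative phosphorylation lay below 0 and 13 were lower at that level, but by a median of only -0.15; NDUFA8 of complex I differed by -0.47 ± 0.11 and SDHC of complex II by -0.32. The count was 6 of 24 with RIN as a covariate, 6 in the naive arrays alone, and 7 or 8 with groups set by DLA-79 or DLA-64 alone. Cholesterol synthesis genes were lower in 6 of 15 (median -0.26), with CYP51A1 at -0.69 and SQLE at -1. Dimmer CYP51A1 probesets differed by -0.6 and -0.07. The count of lower cholesterol genes was 3 without sample 9, 3 in the naive arrays alone and 0 with groups set by DLA-79 alone. Genes of MYC and ribosome biogenesis were lower in 4 of 17 (median -0.19), with DKC1 at -0.45 and NPM1 at -0.42. With RIN as a covariate 0 of the 17 were lower (median -0.11), DKC1 differed by -0.19 and NPM1 by -0.17. With groups set by DLA-79 alone 1 was lower and with DLA-64 alone 9 were.

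**Figure D4:**
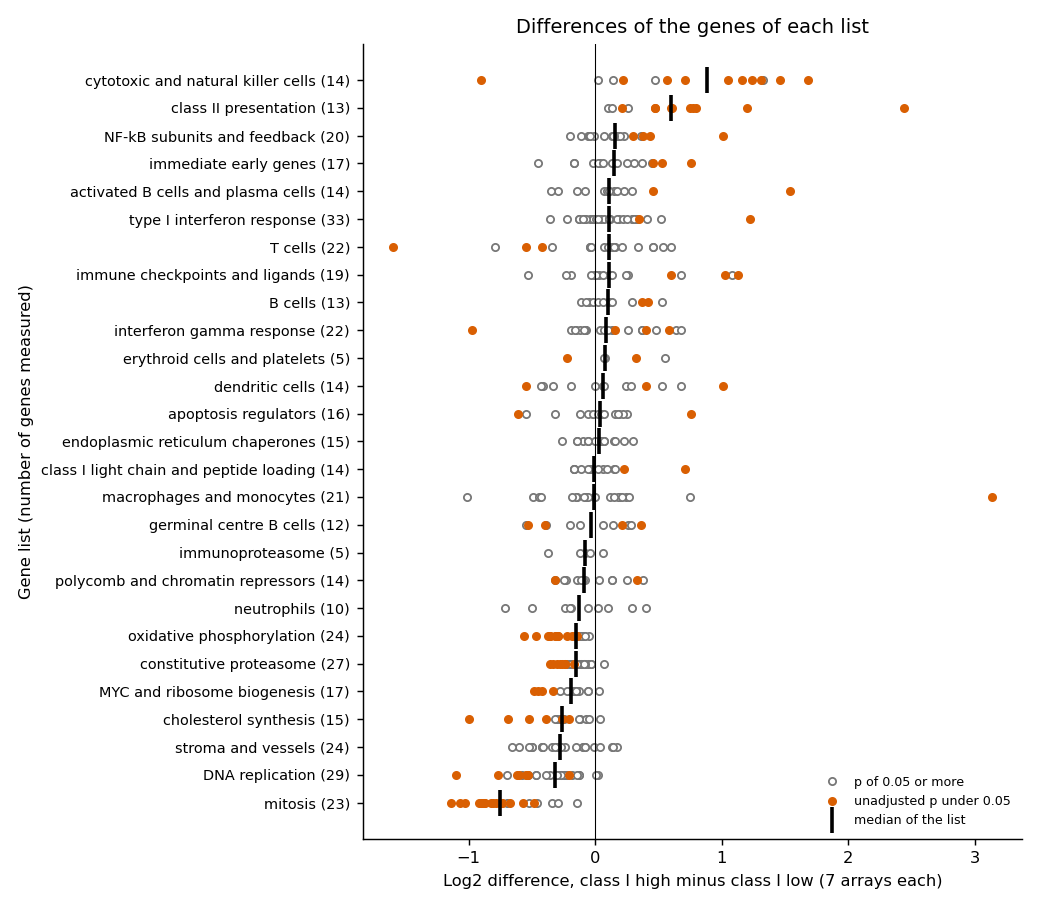
Log2 difference (class I high minus class I low, 7 arrays each) of every measured gene of 27 lists, 1 point per gene (orange, unadjusted p under 0.05; white, other) with the list median as a bar, ordered by that median. Cytotoxic and class II lists have the highest medians (0.88 and 0.60) and mitosis the lowest (-0.75).

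The 2 lists of interferon response genes had medians near 0. Interferons are known inducers of class I genes, and whether they had a part in the class I difference was not tested. Of 33 type I interferon genes 2 were higher and 0 lower at an unadjusted p under 0.05, and the list mean ran from 9.09 to 10.69 in the high and from 9.28 to 10.41 in the low tumours. IRF9, a subunit of the interferon-activated factor ISGF3, differed by 0.35 ± 0.12 and the exonuclease ISG20 by 1.22 ± 0.45. The median was 0.11 and turned to -0.09 with groups set by DLA-79 alone, -0.32 by DLA-64 alone, -0.07 and -0.11 with 6 and 8 tumours a group, and -0.05 without sample 12. Without sample 24 it reached 0.22, with 6 genes higher, and with RIN as a covariate 0 genes were higher (median 0.08). Of 22 interferon gamma genes 3 were higher and 1 lower (median 0.09). WARS1, an inducible tRNA synthetase, differed by 0.58 ± 0.21 and GBP5, an inducible GTPase, by -0.97 ± 0.31. In the fit with RIN 1 interferon gamma gene was higher and 0 lower.

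NF-kB genes had a median of 0.16, with 4 of 20 higher and 0 lower at an unadjusted p under 0.05. RELB, the subunit of the alternative pathway, ran from 7.74 through 7.89 to 8.48 in the high and from 7.51 through 7.55 to 7.86 in the low tumours (0.43 ± 0.12). CD83, a target gene also found on dendritic and activated B cells, differed by 1.01 ± 0.37, and BIRC3 by 0.30 ± 0.11. With groups set by DLA-64 alone 0 of the 20 were higher, and with 8 tumours a group 2. Immune checkpoints were higher in 3 of 19, with the receptor LAG3 at 1.13 ± 0.42, ICOS at 0.60 ± 0.24 and BTLA as given above, and in 1 of 19 with groups set by DLA-64 alone. Immediate early genes were higher in 3 of 17, with IER2 at 0.53 ± 0.12 (list median 0.15). With RIN as a covariate 1 was higher and 1 lower, 11 of 17 lay below 0 and the median was -0.16. The difference of the list mean was 0.17 with and -0.08 without sample 18.

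Pan-B-cell genes had small differences. Of the list 2 of 13 were higher and 0 lower (median 0.10), with CD79B at 0.37 and EBF1 at 0.42. The direction of the list turned with the definition of the groups. With groups set by DLA-64 alone 12 of 13 genes lay below 0 (median -0.39), CD79B and EBF1 among them, and with 8 tumours a group 10 of 13 did (median -0.32), CD79B among them. Both of these high groups held sample 5, whose B-cell mean was 8.46 where those of the other 8 tumours between lay at 10.87 to 11.55. CD79B lay at 12.42 to 13.08 in the high and 11.73 to 12.82 in the low tumours, so that this B-cell receptor chain was bright in every tumour of both groups. Of 12 germinal centre genes 2 were higher and 2 lower, with LMO2 at 0.36 and S1PR2 at -0.40, and with RIN as a covariate 0 were higher and 2 lower (median -0.21). Of 14 genes of activated B cells and plasma cells 2 were higher, with JCHAIN, the joining chain of IgM and IgA, at 1.54 ± 0.48 and SLAMF7 at 0.46.

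Myeloid and stromal lists held few genes past the unadjusted threshold. Of 21 macrophage genes 1 was higher and 0 lower, and the list mean ran from 9.59 to 11.08 in the high and from 9.52 to 10.67 in the low tumours. The gene was FCER1G, the signalling chain of Fc receptors, which had the widest difference of all the named genes. It ran from 5.12 through 8.86 to 10.89 in the high tumours and from 4.6 through 5.13 to 5.54 in the low tumours (3.14 ± 0.69, fold 8.79; limma adjusted p = 0.252). All low tumours lay together and the high tumours spread over more than 5 log2 units. TYROBP, named after its value was seen, differed by 0.24. With RIN as a covariate FCER1G differed by 2.18, and 3 other macrophage genes were lower at that level (list median -0.35). Of 24 stromal and vessel genes none passed an unadjusted p of 0.05 (median -0.27). Under RIN as a covariate 5 of them were lower (median -0.58), in the naive arrays alone 3 were (median -0.35), and 2 were without sample 18 (median -0.43). Of 10 neutrophil genes none passed (median -0.13), and 1 was lower with groups set by DLA-64 alone (median 0.38).

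Dendritic cell genes were higher in 2 of 14 and lower in 1, the erythroid and platelet list had 1 of 5 in each direction, and endoplasmic reticulum chaperones had 0 of 15 in either. In the fit with RIN 2 of the 15 chaperone genes were lower (median -0.19 in place of 0.03). Polycomb and chromatin repressors had 1 of 14 in each direction, HDAC1 at 0.33 and DNMT1 at -0.32. Apoptosis regulators had 1 of 16 in each direction. BAK1, which permeabilises mitochondria, ran from 7.6 through 8.2 to 8.58 against 8.39 through 8.76 to 9.22 (-0.61 ± 0.17). BCL2, its antagonist, ran from 8.65 to 10.93 against 8.51 to 9.36 (0.76 ± 0.33). A second, dimmer probeset differed by -0.03 for BAK1 and by 0.06 for BCL2.

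A slope on the index across all 23 DLBCL arrays, which include the 14 above, passed the adjusted threshold where the group comparison did not. At a limma adjusted p under 0.05, 27 probesets rose (0.0627%) and 48 fell (0.112%) with the index, or 10 genes up (0.0662%) and 13 down (0.086%). The genes that rose included RELL2 (0.44 log2 per unit of the index), FCER1G (1.89), the deubiquitinase USP11 (0.31), CCS, the copper chaperone of superoxide dismutase (0.34), and RAB4B (0.32). Those that fell included BUB1B (-0.68), TTK (-0.68), USP2 (-0.53), CBX5 (-0.46), ACTN1 (-1.05) and cyclin CCNB3 (-0.56). No class II and no cytotoxic gene was among them, and of the mitosis list 2 were.

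The 9 tumours between were used as arrays that the groups did not contain. Their index covered only 10.18 to 10.69. With limma 0 probesets had a slope at an adjusted p under 0.05 there, and 1823 (4.24%) rose and 2004 (4.66%) fell at an unadjusted p under 0.05. The slope had the sign of the group difference for 53.8% of all genes, for 389 of the 690 higher genes (56.4%) and for 480 of the 767 lower genes (62.6%). Of the 10 higher genes of smallest p 3 kept the sign, and of the 10 lower genes 6 did.

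The lists behaved unequally in these 9 tumours. Of the class II genes 2 of 13 had a slope above 0, and of the mitosis genes 18 of 23, so neither followed the direction seen between the groups. Of the cytotoxic genes 12 of 14 did, 7 of them at an unadjusted p under 0.05, against 635 of all 15113 genes (4.2%). Of the T-cell genes 20 of 22 and of the macrophage genes 19 of 21 had a slope above 0 as well, and of the 13 B-cell genes 0 did. Sample 5, at the upper end of the 9 tumours, had a class II mean of 11.97, where the other 8 lay at 12.76 to 12.93. Its B-cell mean of 8.46 was below, and its neutrophil mean of 10.37 above, those of the other 8 (10.87 to 11.55 and 6.48 to 8.47). Its cytotoxic mean was 9.45, beside 9.54 in sample 21. In the 8 tumours without it the count at an unadjusted p under 0.05 was 762 probesets up and 1206 down. The class II list then had 6 of 13 genes above 0, the mitosis list 16 of 23, the T-cell list 22 of 22 and the B-cell list 4 of 13. The cytotoxic list had 12 of 14 above 0, with 3 in place of 7 at an unadjusted p under 0.05.

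**Figure D5:**
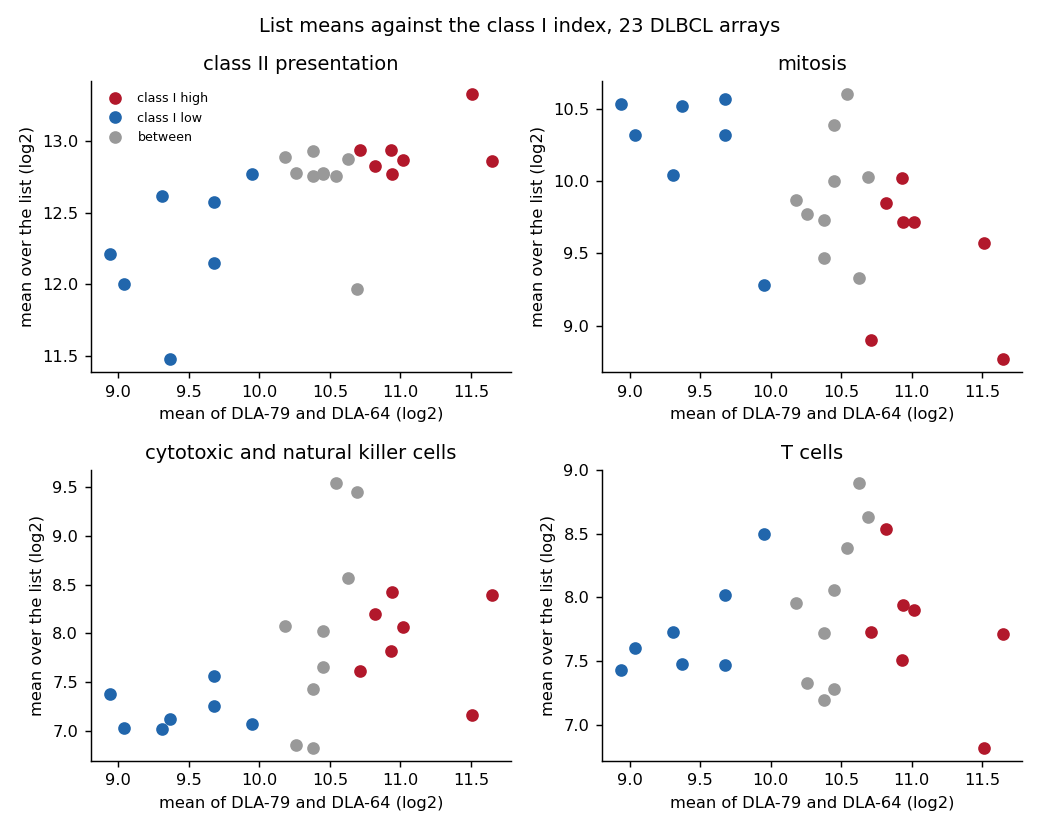
Mean log2 level over the class II, mitosis, cytotoxic and T-cell lists (vertical) against the class I index (horizontal, log2) in the 23 DLBCL arrays (red, class I high; grey, between; blue, class I low). Class II means lie between 12.77 and 13.33 in all high tumours and fall to 11.48 among the low tumours, and 1 array between, sample 5, lies at 11.97.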

How the data were processed

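The authors hybridised RNA of lymph node biopsies to Affymetrix Canine Genome 2.0 arrays and deposited log2 expression values made with RMA in the Affymetrix Expression Console (program versions: not given in the sources used here). RMA gives all arrays one distribution and compresses bright and dim probesets. Each of the 33 arrays held 43035 probesets, with values of 2.2 to 15.49. All array columns were mapped to samples (0 unused), and precision is limited by how many arrays there were.

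Of the probesets, 29264 had 1 gene symbol, 439 several and 13332 none. The symbols come from the platform annotation, and each gene was read from the single-symbol probeset with the highest mean over all arrays. The class I groups were set by DLA-79 and DLA-64 as described, and 6 probesets carrying either symbol were left out of counts. The lists, their members and the index were chosen with earlier results of these data known. The 7 high and 7 low arrays were compared by a moderated test (limma 3.58.1, R 4.3.3) with Benjamini-Hochberg adjustment over all probesets. RIN and age were compared by exact permutation. Named were all class I pathway genes, the 10 genes of smallest p in each direction (none passed the adjusted threshold) and up to 4 genes of smallest p of every other list. The code was tested on simulated data, where 6 of 43035 probesets were called falsely. Array days were taken from array names in the study's supplement. Alternatives were the methods' ANOVA, other centring, cyclic loess, a filter at the 25th percentile, either index gene alone, groups of 6 or 8, the slope over 23 arrays, RIN, treatment or day as a term, and each array left out. Averaging samples 11 and 12, counts at unadjusted p, and leaving out sample 5 between the groups were added after the data were seen.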

Additional observations from a re-analysis of the deposited data

Results flagged for a closer look

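Within the groups of 7, Dixon's test set apart 1 array for 23 of 274 gene and group combinations, where chance gives about 1 in 20. The values are log2 levels, and no explanation was tested.

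In the low group, sample 1 stood apart for BCL11A (11.94, others 11.57 to 11.68), ERAP2 (8.09), DLA-DQA1 (11.52, others 12.69 to 13.27) and RELB (7.86). Sample 4 stood apart for RFXAP (11.58) and FOXP1 (6.80), sample 11 for CLDN5 (6.5) and sample 10 for IER2 (11.74). Sample 12, the relapse of the dog that also gave sample 11, stood apart downwards for TTK (8.22, others 9.05 to 9.59), AURKA (10.01) and NME1 (12.00).

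In the high group, sample 14 had PSMB9, a catalytic subunit of the immunoproteasome, at 10.31 (others 13.26 to 14.01). Sample 20 stood apart for DLA-DOB (12.83), CD3G (6.25), PAX5 (6.24), VWF (10.09) and BID (11.74). Sample 24 had the exonuclease ISG20 at 7.74 (others 9.83 to 10.81). Sample 18, of the lowest RIN, stood apart for EZH1 (8.73), ORC6 (10.28, others 11.77 to 12.09), NPM1 (11.78), MANF (13.72) and NDUFB5 (10.85).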

How the results depend on the processing

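No paired analysis was possible because the class I groups share no dogs and the sample numbers pair no arrays. The count of probesets higher in class I high tumours at a limma adjusted p under 0.05, 0 as reported, was 1 after cyclic loess, 1 without sample 12, and 27 with the slope across 23 arrays. With each array left out in turn it ran from 0 to 1 (1 without sample 19 and 1 without sample 12). The count of lower probesets was 48 with that slope and 0 with each array left out in turn. At an unadjusted p under 0.05 the counts ran from 1571 (without sample 8) to 2374 (without sample 18) for higher and from 1553 (without sample 8) to 2375 (without sample 12) for lower probesets. The RIN difference was -0.28 with groups of 6 (exact permutation p = 0.0368), against p of 0.05303 to 0.2657 for the other definitions. CD79B reversed to -0.41 with DLA-64 alone and to -0.18 with groups of 8, and EBF1 to -0.04 with DLA-64 alone; the cause was not tested. The 20 genes of smallest p had no change of sign over 619 values under the alternatives, and 6 of these values passed the adjusted threshold. These genes were picked by their p in arrays that most alternatives reuse, so the stable signs are no independent support. In the tumours between, 3 of the 10 higher and 6 of the 10 lower genes kept the sign. The other 117 named genes changed sign in 47 of 3625 values. With 7 arrays a group, most simulated differences of 0.5 on the log2 scale could not be called. In the data larger differences, such as 3.14 for FCER1G, were not called either. Genes at the top of the scale can be compressed.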
